A study of Mus musculus with 25 samples.

Results

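The growth hormone, STAT5 and IGF1 axis was followed through 10 genes in mouse liver and liver tumours. The rule lists them by name as parts of this pathway, and the list was drawn up with earlier results of these data known: the receptor Ghr, the transcription factors Stat5a and Stat5b, the secreted products Igf1 and Igfals, the feedback inhibitors Socs2 and Cish, the transcription factors Bcl6 and Cux2, and the binding protein Igfbp1. The symbols were matched to Ensembl identifiers, and all 10 of the 10 were among the 15625 genes, of 48795 listed, that passed the filter on low counts.

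RNA sequencing was done on 25 samples of C57BL/6J mice in 5 groups. In the study, 2-week-old males received diethylnitrosamine (DEN), a liver carcinogen, at 25 mg/kg into the peritoneum, or were left untreated, and ate a control diet (CD) or a Western-like diet (WD) from weaning until tissue was taken at about 36 weeks of age. The groups were untreated liver on the control diet (nonDEN L-CD, 3 samples), untreated liver on the Western diet (nonDEN L-WD, 4), DEN-treated liver on the control diet (DEN L-CD, 4), peritumoural liver of DEN-treated animals on the Western diet (DEN PT-WD, 8) and tumours of such animals (DEN T-WD, 6). On the control diet no tumour could be dissected out, and DEN L-CD liver can therefore hold some tumour tissue. The labels do not say which peritumoural and tumour samples came from 1 animal, nor whether the samples of a group came from separate animals, and p-values measure the spread between these samples only, which may be in part technical.

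Growth hormone from the pituitary binds its receptor on hepatocytes, and the receptor-bound kinase JAK2 phosphorylates STAT5A and STAT5B, which enter the nucleus. There they switch on Igf1, the main source of circulating insulin-like growth factor 1, and Igfals, whose product holds IGF1 in a long-lived complex in blood. They also switch on Socs2 and Cish, whose products damp the receptor's signal. Because growth hormone is secreted in pulses in male rodents and more evenly in females, the same pathway sets many sex differences of the liver: the repressor BCL6 is male-biased, and CUX2 is a female-biased factor. Igfbp1 binds IGF1 outside this complex, is held down by insulin and is switched on by FOXO1 and by cellular stress.

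Normalized counts below are expected read counts scaled to a common library size. They compare 1 gene between samples, whereas TPM, a transcript abundance that also divides by length, compares genes. A gene passed the test at an adjusted p of at most 0.05 in edgeR's quasi-likelihood fit over the 5 groups, and was called when its log2 fold change was also at least 1 in size. SE is the standard error of a log2 fold change. Libraries held 21530083 to 38074411 expected counts. The sum of 6 hepatocyte markers (Alb, Ttr, Apoa1, Serpina1c, Tat and Hnf4a) was 39484 to 70324 TPM in the 19 liver samples and 108277 to 127971 TPM in 5 of the 6 tumours, but 30326 TPM in tumour replicate 5, which stood apart. The sum is led by a few abundant transcripts, and the 6 markers had no single direction: in tumours against DEN PT-WD Apoa1 and Alb rose by 1.04 and 0.89 on the log2 scale and Tat fell by 0.92, with a median of -0.09, and against nonDEN L-WD 1 rose and 3 fell. Markers of Kupffer cells, the resident macrophages of the liver, were lower in tumours than in peritumoural liver for 4 of 5 genes (Marco by 2.05, Timd4 by 1.68 and Clec4f by 1.04), at a summed 125.5 to 233.4 TPM against 161.6 to 389.7 TPM. In the same comparison 1 of 5 stellate cell markers rose (Col1a1) and 2 fell (Lrat and Dcn), and 1 of 5 endothelial markers rose (Pecam1) and 1 fell (Clec4g). Of 5 markers of recruited macrophages 1 rose (Cd9 by 0.86), and their sum was 82.6 to 133.4 TPM in tumours against 33.6 to 75.1 in DEN PT-WD; all 5 were higher in tumours than in nonDEN L-WD. Of 4 cholangiocyte markers 1 rose (Sox9 by 1.38). The part of these cells in the tumour differences described here was not tested. Pancreas markers were found in every group, at a summed 9.25 to 4572 TPM, and the highest 2 sums in DEN PT-WD belonged to replicates 1 and 2. In bulk samples, fewer cells of a type and less RNA per cell cannot be told apart.

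Promoter sequence is shown for the members that hold a motif of the axis. The searched motifs were TTCNNNGAA, the palindromic letters that STAT5 dimers recognise, which reads the same on both strands, and CAAAACAA, a core of the insulin response element bound by FOXO factors, on both strands. The RefSeq promoter table (GRCm38.p6) held 9 of the 10 members in 16 windows, each from 250 bases before to 50 after a transcription start. It had no entry for Socs2, whose promoter was therefore not searched. TTCNNNGAA was found in 5 of the 16 windows, of 3 members (Cish, Bcl6 and Igfals), and in 8.3% of all 32851 promoter windows. CAAAACAA was found in 1 member, Igfbp1, and in 2.51% of them. Each sequence below runs 5′ to 3′ on the gene's strand from 180 bases before the start, 210 bases in all, and capitals mark the matches. They lie at chr9:107296479-107296688 (plus strand, Cish), chr16:23981254-23981463 (minus strand, Bcl6), chr17:24878051-24878260 (plus strand, Igfals) and chr11:7197607-7197816 (plus strand, Igfbp1).
Cish: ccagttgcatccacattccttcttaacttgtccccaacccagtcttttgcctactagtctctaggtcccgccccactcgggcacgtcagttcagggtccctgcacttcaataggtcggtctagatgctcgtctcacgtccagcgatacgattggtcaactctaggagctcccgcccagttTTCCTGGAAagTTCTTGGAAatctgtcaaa
Bcl6: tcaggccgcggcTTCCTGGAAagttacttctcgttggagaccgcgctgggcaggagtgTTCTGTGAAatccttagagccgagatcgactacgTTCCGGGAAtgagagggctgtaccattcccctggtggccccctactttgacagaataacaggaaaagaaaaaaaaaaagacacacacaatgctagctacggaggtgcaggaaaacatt
Igfals: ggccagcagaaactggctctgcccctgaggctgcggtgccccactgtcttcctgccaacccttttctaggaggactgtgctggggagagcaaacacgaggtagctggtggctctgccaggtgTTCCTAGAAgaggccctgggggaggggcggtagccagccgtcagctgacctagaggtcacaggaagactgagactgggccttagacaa
Igfbp1: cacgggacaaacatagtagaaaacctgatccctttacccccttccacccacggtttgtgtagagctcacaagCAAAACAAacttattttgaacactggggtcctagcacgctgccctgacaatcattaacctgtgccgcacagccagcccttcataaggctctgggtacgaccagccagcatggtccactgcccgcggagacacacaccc
Cish held a pair of adjacent matches that begin at positions 0 and 11, counted from 0 at the start, Bcl6 held 3 at -168, -122 and -88, and Igfals held 1 at -58. Windows at other starts, not printed, held 1 more match each for Bcl6, at -118, and Igfals, at -236. The Igfbp1 match begins at -108. A match is a string of letters and not a measured binding site.

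In tumours, the receptor and both secreted products of the axis fell by more than 1 on the log2 scale against peritumoural liver, and Igfbp1 rose. Ghr was 2.13-fold lower, Igf1 2.46-fold lower and Igfals 2.34-fold lower, while Igfbp1 was 4.72-fold higher. Stat5b fell by 0.195 on the log2 scale in normalized counts, a fall that was not past the test in TPM (adjusted p = 0.571 by limma). Stat5a, Socs2, Cish, Bcl6 and Cux2 did not pass. Thus 5 of 10 members passed, 1 higher and 4 lower, where 37.7% of all tested genes passed (19.5% higher, 18.1% lower), and 4 were called against 7.9% of all genes. The median log2 fold change was -0.40 over the members and 0.01 over all genes.

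**Figure D1:**
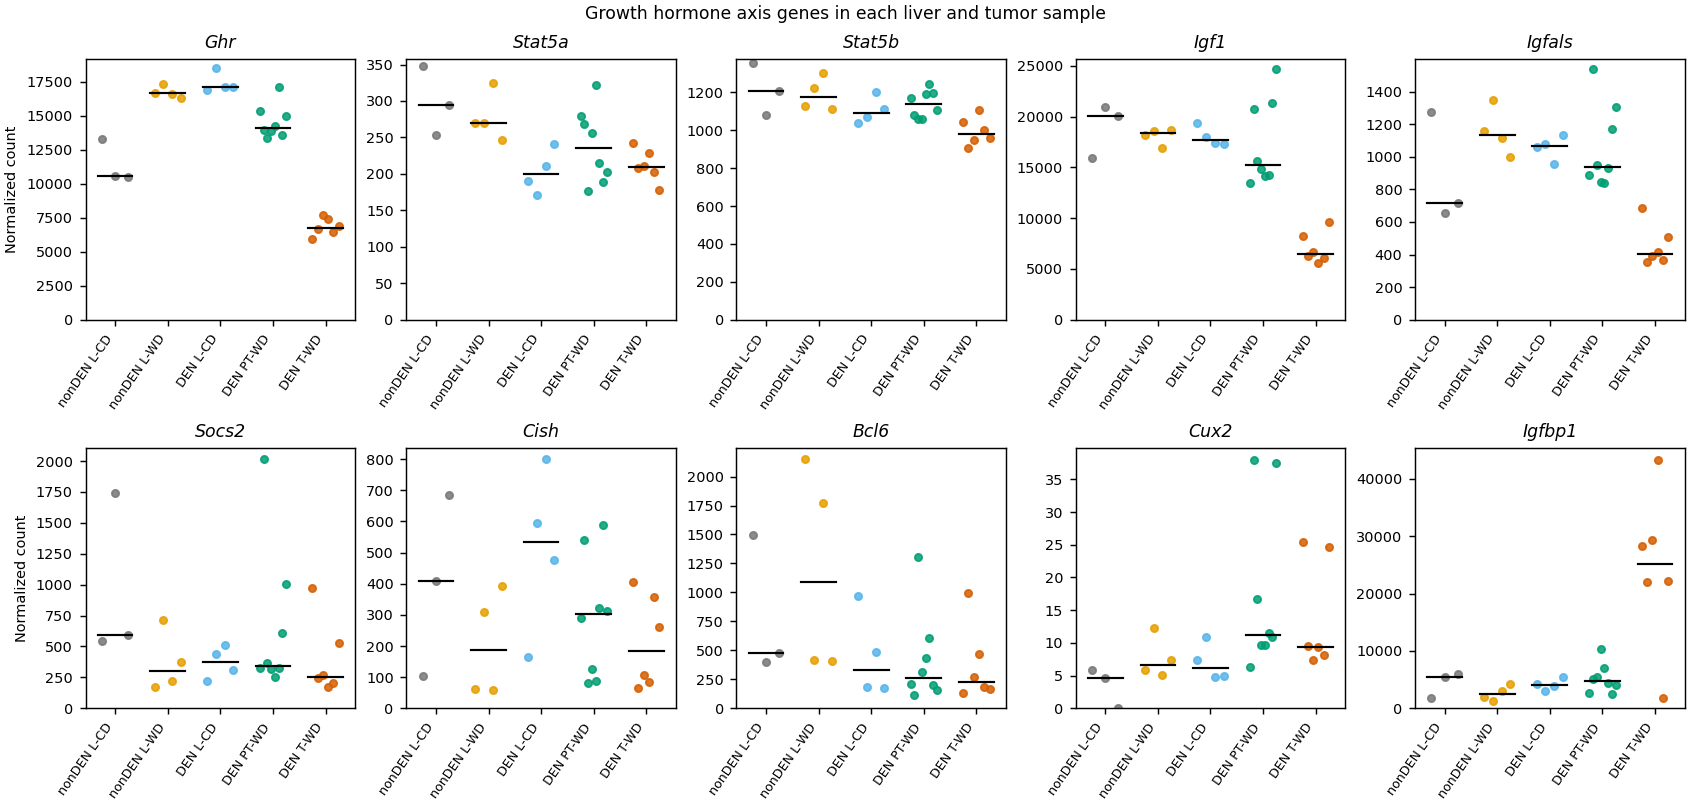
Normalized count (vertical axis, linear, from 0) of each of the 10 genes in each sample, by group; points are samples and bars are group medians. Ghr and Igf1 lie lower in all 6 tumours than in every liver sample, Igfbp1 lies at 22046 or more in 5 of 6 tumours, and Socs2, Cish and Bcl6 spread widely within every group.

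Ghr, the growth hormone receptor (ENSMUSG00000055737, chr15:3317760-3583492, minus strand, GRCm38), was the member with the most orderly differences between groups. In nonDEN L-CD liver its normalized counts were 13314, 10554 and 10506, and in nonDEN L-WD liver 16711, 17334, 16572 and 16321. In DEN L-CD liver they were 16891, 18538, 17110 and 17119. The control-diet samples of untreated mice thus lay below all samples of the other 2 liver groups, which overlapped each other. DEN PT-WD samples ran from 13373 through a median of 14125 to 17134, and tumours from 5928 through 6779 to 7697. No tumour reached the lowest liver sample of any group.

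The fall of Ghr in tumours was -1.09 (SE 0.07, adjusted p = 2.94e-09) against peritumoural liver and -1.29 (adjusted p = 4.93e-10) against nonDEN L-WD liver. It passed in every alternative tried for the first contrast, at -1.13 to -1.02. In untreated mice the Western diet went with a rise of 0.55 (SE 0.10, adjusted p = 0.000553), and DEN on the control diet with a rise of 0.60 (SE 0.10, adjusted p = 0.000235); both comparisons share the 3 nonDEN L-CD samples. DEN L-CD and nonDEN L-WD liver differed by 0.06 (95% interval -0.13 to 0.25). On the DEN background the diet difference had the other sign: PT-WD was lower than DEN L-CD by 0.26 (SE 0.08, adjusted p = 0.0382) in normalized counts but higher by 0.025 in log2(TPM + 1), a scale on which the median of all genes moved by 0.23. Ghr also no longer passed without any single DEN L-CD sample and without DEN PT-WD replicates 2, 3, 4, 5 or 7 (adjusted p = 0.0512 to 0.116). The difference between the 2 diet effects was itself past the test, at -0.80 (adjusted p = 0.000683), and passed in every alternative (-0.93 to -0.75). The tissue of the DEN Western-diet group is peritumoural, so an effect of nearby tumours and this interaction cannot be told apart. Acute-phase genes moved in the same interaction, with 6 of 13 higher and none lower against 8.39% of all genes, and their part was not tested.

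Acute-phase genes differed in the same 2 comparisons with nonDEN L-CD liver as Ghr, though not in step with it in every sample. Of 13 tested, 7 fell and none rose with the Western diet in untreated mice, and 6 fell and none rose with DEN on the control diet, where 23.2% and 21.3% of all genes passed in either direction. In nonDEN L-CD liver the summed TPM of 14 acute-phase genes was 4000 in replicate 1 and 15323 and 16927 in replicates 2 and 3. The other 4 groups had 2616 to 9531. Replicates 2 and 3 had the lowest Ghr of the liver samples. Replicate 1 lay within the range of the other groups, though its Ghr, at 13314, was below every sample of the other liver groups. Saa1, a serum amyloid protein made in inflammation, had 3729, 50136 and 62567 normalized counts in nonDEN L-CD liver and 1204 to 4320 in nonDEN L-WD liver. Socs3, the inhibitor induced by interleukin-6 signalling, had 365, 1130 and 1236 there and 67 to 163 in nonDEN L-WD liver. Stat3, the factor of that signal, had 5114, 6164 and 6544 there against 1684 to 2906. Of 16 clock genes 4 passed with the diet and 3 with DEN, shares near those of all genes. Arntl, a core clock gene, had 90, 221 and 110 there against 27 to 51, and Dbp, a clock output gene, had 1773, 488 and 882 against 1607 to 2030. The part of inflammation or of the hour of tissue collection in the Ghr difference was not tested.

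The paralogs Stat5a (ENSMUSG00000004043, chr11:100859351-100885169, plus strand) and Stat5b (ENSMUSG00000020919, chr11:100780731-100850724, minus strand) lie side by side and share 8.21% and 11.0% of their 50-base words with other genes, chiefly each other, so that reads from shared stretches were split between them by estimation. Stat5b is the main form in liver. It took 72.8% ± 1.22 (SD, n = 3) of the summed Stat5 TPM in nonDEN L-CD liver, 74.8% ± 1.78 (n = 4) in nonDEN L-WD, 78.4% ± 3.76 (n = 4) in DEN L-CD, 76.9% ± 4.20 (n = 8) in DEN PT-WD and 75.8% ± 1.39 (n = 6) in tumours. None of 6 comparisons of this share passed (exact permutation test, two-sided, adjusted p = 0.343 to 0.598). Against nonDEN L-CD none could, because 3 against 4 samples allow no p below 0.0571; the share was 5.56 percentage points higher in DEN L-CD than there.

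Stat5b was among the steadiest members. It had 1353, 1080 and 1210 normalized counts in nonDEN L-CD liver, 1130, 1222, 1304 and 1111 in nonDEN L-WD liver and 1036, 1071, 1204 and 1115 in DEN L-CD liver. It ran from 1059 through a median of 1137 to 1243 in DEN PT-WD and from 905 through 982 to 1105 in tumours. The tumours overlapped peritumoural liver and lay just below nonDEN L-WD. Against peritumoural liver the log2 fold change was -0.195 (SE 0.06, adjusted p = 0.0117; -0.06 in TPM), and against nonDEN L-WD it was -0.26 (SE 0.07, adjusted p = 0.0035) in normalized counts but 0.16 in log2(TPM + 1) (adjusted p = 0.155 by limma), where the median of all genes moved by 0.26.

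Stat5a had 349, 253 and 294 normalized counts in nonDEN L-CD liver, 269, 270, 325 and 246 in nonDEN L-WD liver, and 190, 171, 211 and 241 in DEN L-CD. DEN L-CD samples lay below every sample of both untreated groups. DEN PT-WD ran from 177 through 236 to 322 and tumours from 177 through 209 to 242. Stat5a fell with DEN on the control diet by 0.56 on the log2 scale (SE 0.17, adjusted p = 0.0246). It no longer passed in TPM (adjusted p = 0.124) and without nonDEN L-CD replicate 1 or 3 or DEN L-CD replicate 1 or 2 (adjusted p = 0.0564 to 0.105). In tumours against nonDEN L-WD the log2 fold change was -0.39 (SE 0.14, adjusted p = 0.0279) in normalized counts and 0.07 in log2(TPM + 1), and Stat5a also no longer passed without nonDEN L-WD replicate 3 or tumour replicate 6 (adjusted p = 0.114 and 0.0624).

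Igf1, the secreted growth factor (ENSMUSG00000020053, chr10:87858265-87937042, plus strand), was lower in tumours and did not pass the test between any of the liver groups. It had 15957, 20988 and 20035 normalized counts in nonDEN L-CD liver, 18191, 18578, 16934 and 18706 in nonDEN L-WD liver, and 19363, 18021, 17444 and 17332 in DEN L-CD. Those 3 groups overlapped. In DEN PT-WD the samples fell into a lower set of 5, from 13500 to 15671, and an upper set of 3, replicates 2, 7 and 8, at 20802, 21354 and 24720. Tumours ran from 5587 through 6482 to 9583, with replicates 6 and 1 highest, and none overlapped liver. The log2 fold change was -1.30 (SE 0.14, adjusted p = 5.7e-07) against peritumoural liver and -1.36 (SE 0.16, adjusted p = 6.25e-07) against nonDEN L-WD. Between liver groups the log2 fold changes were -0.13 to -0.0049, and the 95% interval for the Western diet in untreated mice was -0.47 to 0.33.

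Igfals, which encodes the acid-labile subunit of the circulating IGF complex (ENSMUSG00000046070, chr17:24865997-24882010, plus strand), fell by a like amount in tumours. It had 1276, 653 and 718 normalized counts in nonDEN L-CD liver, 1158, 1350, 1114 and 997 in nonDEN L-WD liver, and 1058, 1076, 955 and 1133 in DEN L-CD liver. In DEN PT-WD it ran from 840 through 940 to 1540. Its 3 highest peritumoural values were those of replicates 2, 8 and 7, the samples with the highest Igf1. Tumours ran from 352 through 404 to 683, below every sample of the Western-diet and DEN-treated liver groups, while tumour replicate 1 overlapped nonDEN L-CD. The log2 fold change was -1.23 (SE 0.17, adjusted p = 1.21e-05) against peritumoural liver and -1.35 (SE 0.20, adjusted p = 8.45e-06) against nonDEN L-WD. For the diet in untreated mice it was 0.39 (adjusted p = 0.253), and 0.73 (adjusted p = 0.033) without nonDEN L-CD replicate 1.

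Igfbp1, the insulin- and stress-regulated binding protein (ENSMUSG00000020429, chr11:7197782-7202546, plus strand; the Igfbp1 promoter above holds CAAAACAA), rose in tumours. It had 1711, 5410 and 5949 normalized counts in nonDEN L-CD liver, 1912, 1209, 2962 and 4157 in nonDEN L-WD liver, and 4181, 3027, 3951 and 5445 in DEN L-CD liver. DEN PT-WD ran from 2451 through 4735 to 10334. The 6 tumours had 28347, 22046, 29343, 43342, 1780 and 22130. The 5 high tumours lay above all liver samples, and replicate 5 lay among the lowest liver samples. The log2 fold change was 2.24 (SE 0.44, adjusted p = 0.000415) against peritumoural liver and 3.26 (SE 0.61, adjusted p = 0.000128) against nonDEN L-WD, and 2.48 and 3.51 without tumour replicate 5. That tumour had the hepatocyte marker sum of 30326 TPM given above, with Alb at 637050 normalized counts against 2542449 to 3355747 in the other tumours. It still showed the falls of Ghr, Igf1 and Igfals, at 6422, 6063 and 369 normalized counts.

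Per length, the order of the axis transcripts differed between tumours and liver. In the 4 liver groups Igf1 and Ghr led, with median TPM of 310 to 414 and 215 to 335. Igfbp1 followed at 83.1 to 178, and the other members had medians of at most 27.7. Igf1 and Ghr overlapped in TPM in nonDEN L-WD, DEN L-CD and DEN PT-WD liver, and so did several of the lower members. In tumours Igfbp1 led with a median of 1064 TPM, followed by Ghr and Igf1 at medians of 161 and 154. Ghr (146 to 165 TPM) and Igf1 (126 to 236 TPM) overlapped in tumours, and their means, 158 and 166, had the other order. The ratio of Igfbp1 to Igf1 TPM was 0.12 to 1.30 in the 19 liver samples, with 1 above 1 (DEN PT-WD replicate 4). In tumours it was 6.92, 6.43, 7.65, 13.96, 0.54 and 4.03.

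**Figure D2:**
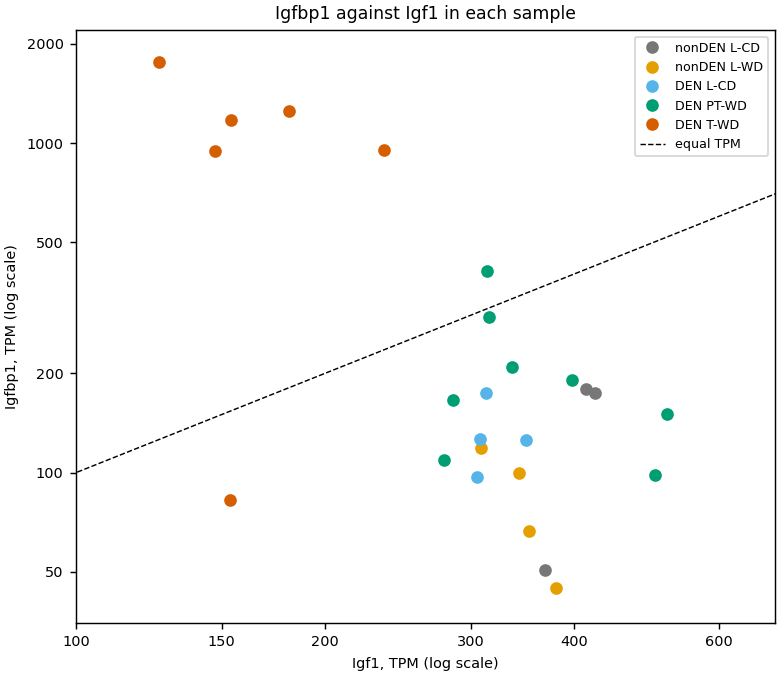
Igfbp1 TPM (vertical, log scale) against Igf1 TPM (horizontal, log scale) in each of the 25 samples, coloured by group, with a dashed line of equal TPM. Of 6 tumours, 5 lie above the line at the upper left, and tumour replicate 5 lies below it with Igfbp1 at 82.6 TPM.

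Socs2, Cish and Bcl6, which respond to growth hormone pulses, varied widely between samples of 1 group. The pooled standard deviation within groups, in log2 CPM (counts scaled to library size), was 0.92 for Socs2, 1.18 for Cish and 1.15 for Bcl6, above that of 94.8%, 97.1% and 96.8% of tested genes. It was 1.03 for Igfbp1 and 0.74 for Cux2. Ghr, at 0.12, and Stat5b, at 0.11, varied little, with 15.2% and 9.7% of genes varying less. Stat5a (0.23), Igf1 (0.26) and Igfals (0.32) lay near or above the median gene, at 0.23.

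Cish, the cytokine-inducible inhibitor of STAT5 signalling (ENSMUSG00000032578, chr9:107296026-107302784, plus strand; the Cish promoter above holds a pair of STAT5-type motifs), had 103, 408 and 686 normalized counts in nonDEN L-CD liver, 63, 310, 59 and 394 in nonDEN L-WD liver and 163, 594, 800 and 475 in DEN L-CD liver. It ran from 82 through 302 to 590 in DEN PT-WD and from 65 through 185 to 406 in tumours. All groups overlapped, and the highest sample of a group had 4.90 to 7.22 times the count of the lowest. Against peritumoural liver the tumours differed by -0.47 (95% interval -1.63 to 0.70). No Cish difference passed in the 6 comparisons (adjusted p = 0.409 to 0.961).

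Bcl6, the male-biased repressor (ENSMUSG00000022508, chr16:23965052-23988852, minus strand), had 1498, 398 and 480 normalized counts in nonDEN L-CD liver, 2148, 419, 1767 and 412 in nonDEN L-WD liver and 969, 183, 483 and 175 in DEN L-CD liver. It ran from 119 through 262 to 1304 in DEN PT-WD and from 130 through 225 to 996 in tumours, so that all groups overlapped. In 4 of the 5 groups the sample with the highest Bcl6 had the lowest Cish, and in nonDEN L-WD it had the second lowest, which was noticed after the values were seen. Other samples did not keep this order: DEN L-CD replicate 3 had the highest Cish of its group and the second highest Bcl6, and nonDEN L-CD replicate 3 exceeded replicate 2 in both. In tumours against nonDEN L-WD the log2 fold change of Bcl6 was -1.69 (SE 0.69, adjusted p = 0.048). It no longer passed without nonDEN L-WD replicate 1 or 3 or tumour replicate 1, 3, 4, 5 or 6 (adjusted p = 0.0569 to 0.186), or in TPM (adjusted p = 0.105). Nor did it pass with no filter on low counts (adjusted p = 0.0628) or in a fit of only the 2 groups compared (adjusted p = 0.0552). With replicate numbers as a block the adjusted p was 0.279. Peritumoural against nonDEN L-WD liver gave -1.51 (adjusted p = 0.12), which passed without DEN PT-WD replicate 3 (-2.03, adjusted p = 0.0415).

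Socs2, the feedback inhibitor of the receptor (ENSMUSG00000020027, chr10:95385362-95417180, minus strand), had 542, 1744 and 590 normalized counts in nonDEN L-CD liver, 175, 715, 225 and 373 in nonDEN L-WD liver and 220, 442, 513 and 313 in DEN L-CD. All 4 DEN L-CD samples lay below the 3 of nonDEN L-CD, and the difference of -1.37 (95% interval -2.81 to 0.07) did not pass (adjusted p = 0.169). In DEN PT-WD it ran from 256 through 345 to 2016, with replicates 2, 8 and 7 highest at 2016, 1006 and 610. These were the 3 peritumoural samples with the highest Igf1 and Igfals. In tumours it ran from 171 through 256 to 973, with replicates 1 and 6 highest at 973 and 525, again the samples with the highest Igf1. Some 4.53% of its 50-base words are shared with other genes, most with Gm9847.

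Cux2, the female-biased factor (ENSMUSG00000042589, chr5:121856366-122050102, minus strand), was near the limit of detection. It had 5.85, 4.60 and 0 normalized counts in nonDEN L-CD liver, where 0 in replicate 3 allows up to 3 counts. It had 5.85, 12.3, 5.15 and 7.46 in nonDEN L-WD liver and 7.42, 10.8, 4.86 and 4.88 in DEN L-CD liver. It ran from 6.31 through 11.3 to 37.9 in DEN PT-WD and from 7.41 through 9.44 to 25.4 in tumours. The highest 2 samples were again DEN PT-WD replicates 2 and 8 (37.9 and 37.5) and tumour replicates 1 and 6 (25.4 and 24.7). It did not pass in the 6 comparisons, at log2 fold changes of -0.34 to 1.32, whereas DEN PT-WD against nonDEN L-CD gave 2.31 (SE 0.71, adjusted p = 0.0115), where 45.3% of genes passed, and tumours against nonDEN L-CD gave 1.97 (adjusted p = 0.0265), where 54.0% did.

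The relation of 7 pairs of members was examined within DEN PT-WD (n = 8) and within tumours (n = 6), 14 relations in all. By exact permutation of log2 CPM, 3 had an adjusted p of at most 0.05 (Igf1 with Igfals and with Socs2 in peritumoural liver, and Bcl6 with Cish in tumours), and 0 had on log2(TPM + 1), where 3 had an unadjusted p under 0.05. By ranks of log2 CPM (Spearman's rho) 0 had, with a smallest adjusted p of 0.0762 and 4 unadjusted p under 0.05. No coefficient is given, because the samples fell into separate sets (Igf1 in 5 and 3 peritumoural samples, Cish in 3 and 3 tumours) that are too small to be tested alone. Prlr, the prolactin receptor, was also highest in DEN PT-WD replicates 2 and 8, at 5577 and 5132 normalized counts against 2193 to 3637 in the other 6. DEN PT-WD replicate 2 had 1828 TPM of summed pancreas markers and replicate 8 had 9.25.

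**Figure D3:**
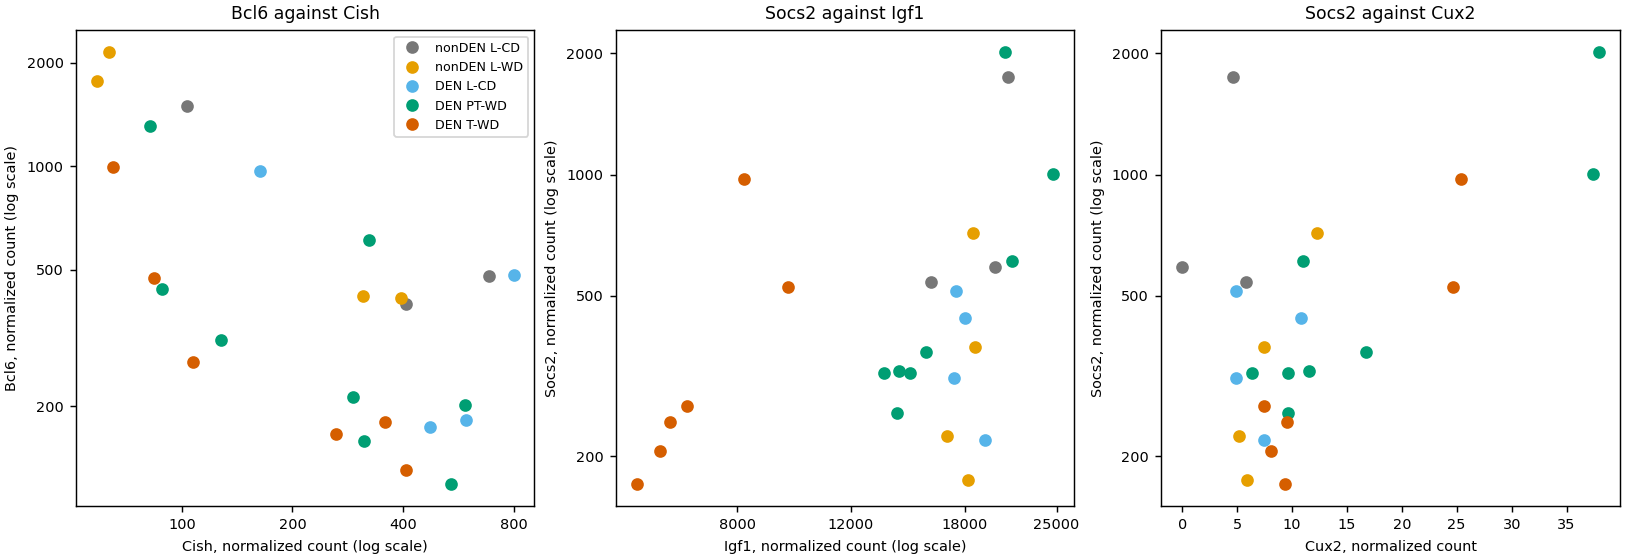
Bcl6 against Cish and Socs2 against Igf1 (log scales) and Socs2 (log scale) against Cux2 (linear) in normalized counts; each point is 1 of 25 samples, coloured by group. The sample with the highest Bcl6 has the lowest Cish in 4 of 5 groups, though other samples depart from this order, and DEN PT-WD replicates 2 and 8 and tumour replicates 1 and 6 are the highest of their group in both Socs2 and Cux2.

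Fewer members moved in the comparisons of liver with liver. With the Western diet in untreated mice 1 of 10 passed (Ghr) against 23.2% of all genes, none was called (5.28% of genes) and 1 did not overlap (30.8%). With DEN on the control diet 2 passed (Ghr and Stat5a) against 21.3%, none was called (4.7%) and 3 did not overlap (34.4%). Between DEN PT-WD and nonDEN L-WD liver, 0 of 10 passed in edgeR against 12.4%, although 3 (Ghr, Bcl6 and Cux2) had an unadjusted p under 0.05, and DESeq2 passed 1; 0 were called (2.76%) and 0 did not overlap (6.73%). In that comparison Ghr changed by -0.20 (adjusted p = 0.092 in edgeR, 0.0434 in DESeq2 and 0.0326 in edgeR without DEN PT-WD replicate 6). For DEN PT-WD liver against that of DEN L-CD mice 1 passed (Ghr) against 10.6%, none was called (1.9%) and 0 did not overlap (7.41%). Only Ghr passed for the interaction of DEN and diet, where 8.39% of genes did. These shares of members were near or below those of all genes.

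Tumours against nonDEN L-WD liver gave 7 of 10 members past the test, 1 higher and 6 lower, against 49% of all genes (25.9% higher, 23.1% lower). On log2(TPM + 1) 4 passed and 3 were called, and Stat5a and Stat5b had the other sign. In normalized counts 5 were called (15.7%), and for 5 the groups did not overlap (31.3%). Against peritumoural liver the groups did not overlap for 3 members, Ghr, Igf1 and Igfals (9.47%). Both comparisons use the same 6 tumours.

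**Figure D4:**
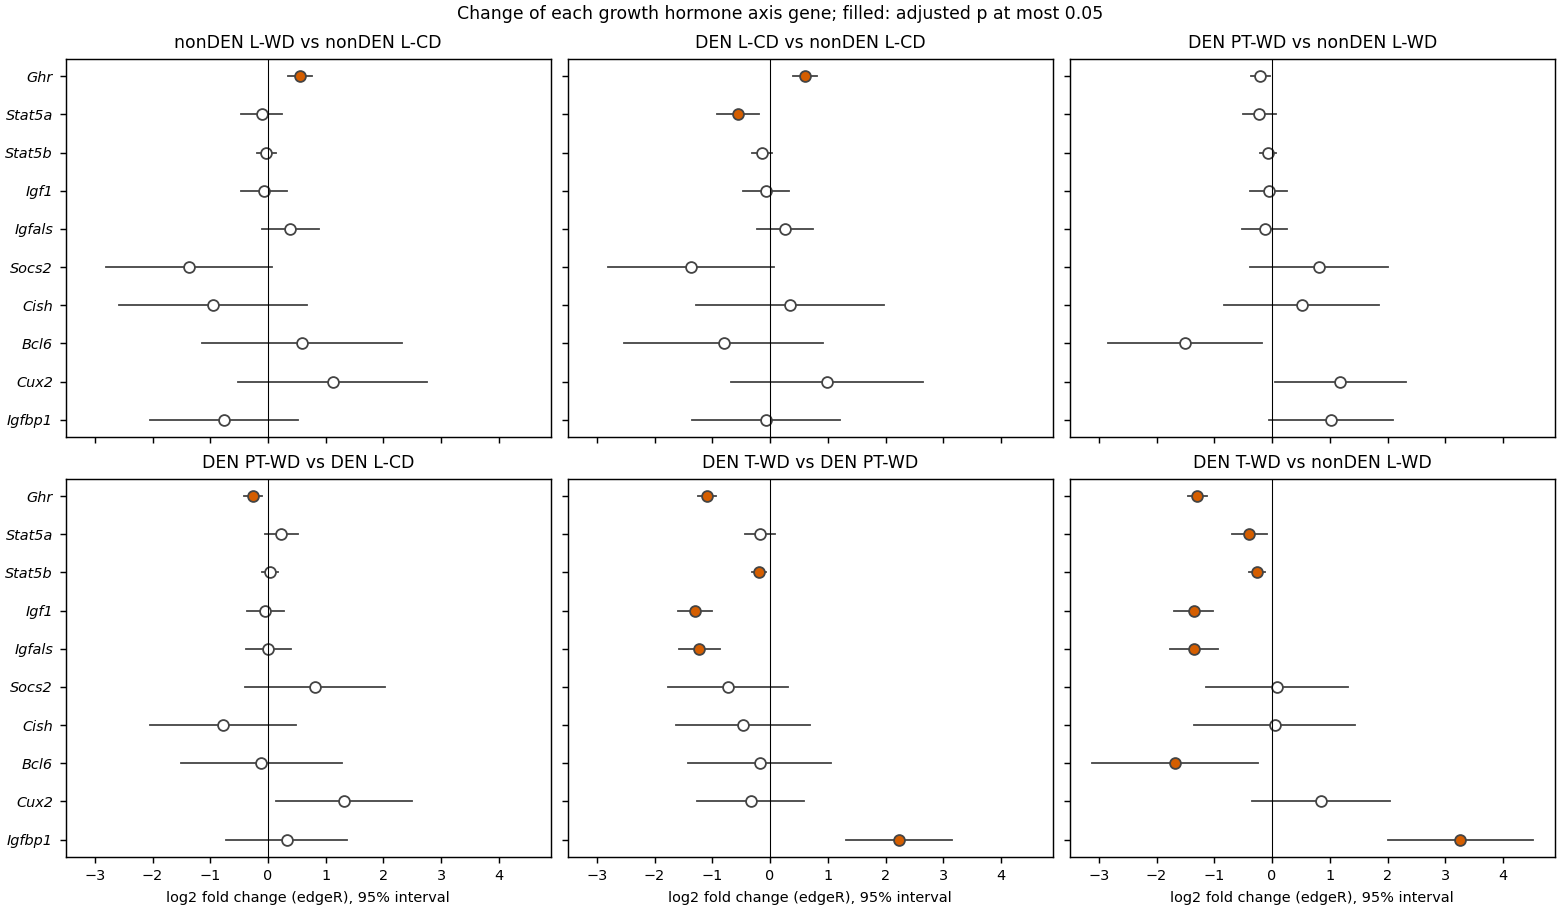
Log2 fold change (horizontal) of the 10 genes in the 6 comparisons; lines are 95% intervals and filled points have an adjusted p of at most 0.05. Ghr, Igf1 and Igfals lie left of -1 and Igfbp1 right of 2 in both tumour panels, and intervals of Socs2, Cish, Bcl6, Cux2 and Igfbp1 are the widest.

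Among 18 cytokine receptors, JAK kinases and STAT factors, 3 were higher and 4 lower in tumours than in peritumoural liver, with a median log2 fold change of 0.11; these 7 of 18 compare with 37.7% of all genes. Lepr, the leptin receptor, rose by 1.14 (adjusted p = 0.027), Osmr, the oncostatin M receptor, by 0.56 (adjusted p = 0.0435) and Stat6 by 0.17 (adjusted p = 0.00203). Prlr fell by 1.11 (adjusted p = 0.00161), and Il6st, the shared signalling chain of the interleukin-6 family, fell by 0.38 (adjusted p = 0.00861). Jak2, the kinase of the growth hormone receptor, had 664 to 859 normalized counts in DEN PT-WD and 758 to 959 in tumours (0.14, adjusted p = 0.0606). Among 18 inhibitors, 4 were higher and 1 lower, a smaller share than that of all genes. Grb10, an adaptor that dampens insulin and IGF1 receptors, rose by 1.51 (adjusted p = 1.31e-05), Socs5 by 0.60 and Pias1 by 0.29, while Grb14, a relative of Grb10, fell by 0.30 (adjusted p = 0.00272). Socs3 had a log2 fold change of 0.21 (adjusted p = 0.559).

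Of 19 genes of the IGF system 18 were tested, and 5 were higher and 3 lower in tumours than in peritumoural liver, with a median of 0.16, a share near that of all genes. Beside Igfbp1, Stc1, whose product stanniocalcin inhibits the protease that frees IGF1, rose by 1.83 (adjusted p = 0.000252), from 12 to 60 normalized counts in DEN PT-WD to 80 to 118. Igfbp3, the binding protein of the large circulating complex, rose by 0.55 (adjusted p = 0.00958), from 666 to 954 to 806 to 1636. Beside Igf1 and Igfals, Igfbp5 fell by 0.80 (adjusted p = 0.0111). Igf2, the fetal growth factor, had 23.2 to 77.6 normalized counts in DEN PT-WD and 22.0 to 132 in tumours (0.39, adjusted p = 0.366) but was higher in tumours than in nonDEN L-WD liver, at 14.6 to 23.7 (1.57, adjusted p = 0.00326). Igf1r, the IGF1 receptor, was low in every group, with 122 to 142 normalized counts in tumours (-0.20, adjusted p = 0.391). Peritumoural liver already had more Igfbp3 than nonDEN L-WD liver, by 0.58 (adjusted p = 0.0443). In that comparison 2 of 5 endothelial markers (Lyve1 by 1.09 and Pecam1 by 0.41) and 3 of 5 stellate cell markers (Col1a1 by 0.86, Pdgfrb by 0.62 and Dcn by 0.48) rose as well, and their part was not tested.

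Among 17 insulin and FOXO1 genes, 2 were higher in tumours than in peritumoural liver and 6 lower. The higher ones were Igfbp1 and Insr, the insulin receptor (0.29, adjusted p = 0.013). G6pc and Pck1, the enzymes of glucose output that FOXO1 also drives, fell by 1.38 (adjusted p = 0.000349) and 0.87 (adjusted p = 0.000704). Among 12 genes of the integrated stress response, 8 rose and none fell, against 19.5% and 18.1% of all genes, with a median of 1.13. Psat1 and Phgdh, enzymes of serine synthesis, rose by 2.25 and 1.96, and Trib3, a stress-induced pseudokinase, by 2.06 (adjusted p = 9.07e-06). Trib3 had 1257, 944, 844, 1206, 347 and 914 normalized counts in the tumours, lowest in replicate 5, the tumour with low Igfbp1, and 125 to 369 in DEN PT-WD. The part of either pathway in the Igfbp1 difference was not tested.

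Of 18 regulators of the growth hormone response, 1 was higher and 7 lower in tumours, against 19.5% and 18.1% of all genes. Fgf21, a fasting hormone that lowers hepatic response to growth hormone and is also on the stress list, rose by 1.72 (adjusted p = 0.000432), from 30 to 148 normalized counts in DEN PT-WD to 118 to 582. Nr1i3, the xenobiotic receptor CAR, fell by 1.46 on the log2 scale (adjusted p = 2.42e-05). Cebpb fell by 0.63 (adjusted p = 0.000337).

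Genes whose liver expression growth hormone makes sex-dependent were followed as 2 lists. Of 27 male-biased genes, 6 fell and 0 rose by edgeR between nonDEN L-WD and peritumoural liver, 10 fell and 0 rose between DEN L-CD and peritumoural liver, and 15 fell and 0 rose between peritumoural liver and tumours, of which 11 were called. All tested genes gave 4.87%, 3.76% and 18.1% lower in these comparisons. With the Western diet in untreated mice and with DEN on the control diet, 1 rose and 1 fell in each, where 23.2% and 21.3% of all genes passed. Elovl3, a male-biased fatty acid elongase, had 1913 to 3330 normalized counts in nonDEN L-WD, 618 to 1371 in DEN PT-WD and 185 to 430 in tumours, 3 ranges without overlap (-1.40, adjusted p = 0.000822, and -1.86, adjusted p = 1.28e-06). Mup1, a major urinary protein, had 35978 to 93614 in nonDEN L-WD, 4173 to 25368 in DEN PT-WD and 1034 to 7921 in tumours (-2.03 and -1.70). The Mup genes are near-identical copies whose reads cannot be assigned with certainty.

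Of 33 tested female-biased genes, 13 rose and 0 fell between nonDEN L-WD and peritumoural liver, and 9 rose and 0 fell from DEN L-CD, where 7.5% and 6.8% of all genes were higher. Cyp2b9, a female-biased cytochrome, had 8, 61, 31 and 7 normalized counts in nonDEN L-WD liver and 116 to 2397 in DEN PT-WD (5.72, adjusted p = 0.00105). Outside peritumoural liver, Cyp2b9 had 187, 253, 114 and 538 in DEN L-CD liver and at most 1.2 in nonDEN L-CD. The list also had 7 higher and 1 lower with the Western diet in untreated mice, and 6 higher and 0 lower with DEN on the control diet, where 23.2% and 21.3% of all genes passed. In tumours against DEN PT-WD the list had no single direction, with 6 higher and 7 lower, where 19.5% and 18.1% of all genes were. Against nonDEN L-WD liver, 15 were higher in tumours and 3 lower, where 25.9% and 23.1% of all genes were. Cyp2a4, Sult2a2 and Prom1 rose by 2.29, 1.95 and 1.92 against DEN PT-WD. Cyp4a14 and Cyp4a10, which are also targets of PPARα, fell by 1.92 and 1.62. The peritumoural changes of both lists stood beside no change past the test in Igf1 or Igfals. Ghr was lower by 0.26 than in DEN L-CD (adjusted p = 0.0382 in edgeR), but passed in only 6 of 19 alternatives. In log2(TPM + 1) this Ghr difference was 0.025 (adjusted p = 0.812 by limma). Against nonDEN L-WD Ghr, at -0.20, passed only in DESeq2 and without DEN PT-WD replicate 6. Stat5a and Stat5b did not pass either in normalized counts, whereas against DEN L-CD they were higher by 0.43 and 0.40 in log2(TPM + 1) (adjusted p = 0.0225 and 0.00247 by limma), a scale on which the median of all genes moved by 0.23. Recruited macrophage markers moved with them: all 5 of the list were higher in peritumoural liver than in either other group, at a summed 33.6 to 75.1 TPM against 16.1 to 38.1 in nonDEN L-WD liver. Endothelial markers were higher for 2 of 5 against nonDEN L-WD and 3 of 5 against DEN L-CD, stellate cell markers for 3 of 5 and 2 of 5, and none of either list was lower. The part of these cells was not tested.

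**Figure D5:**
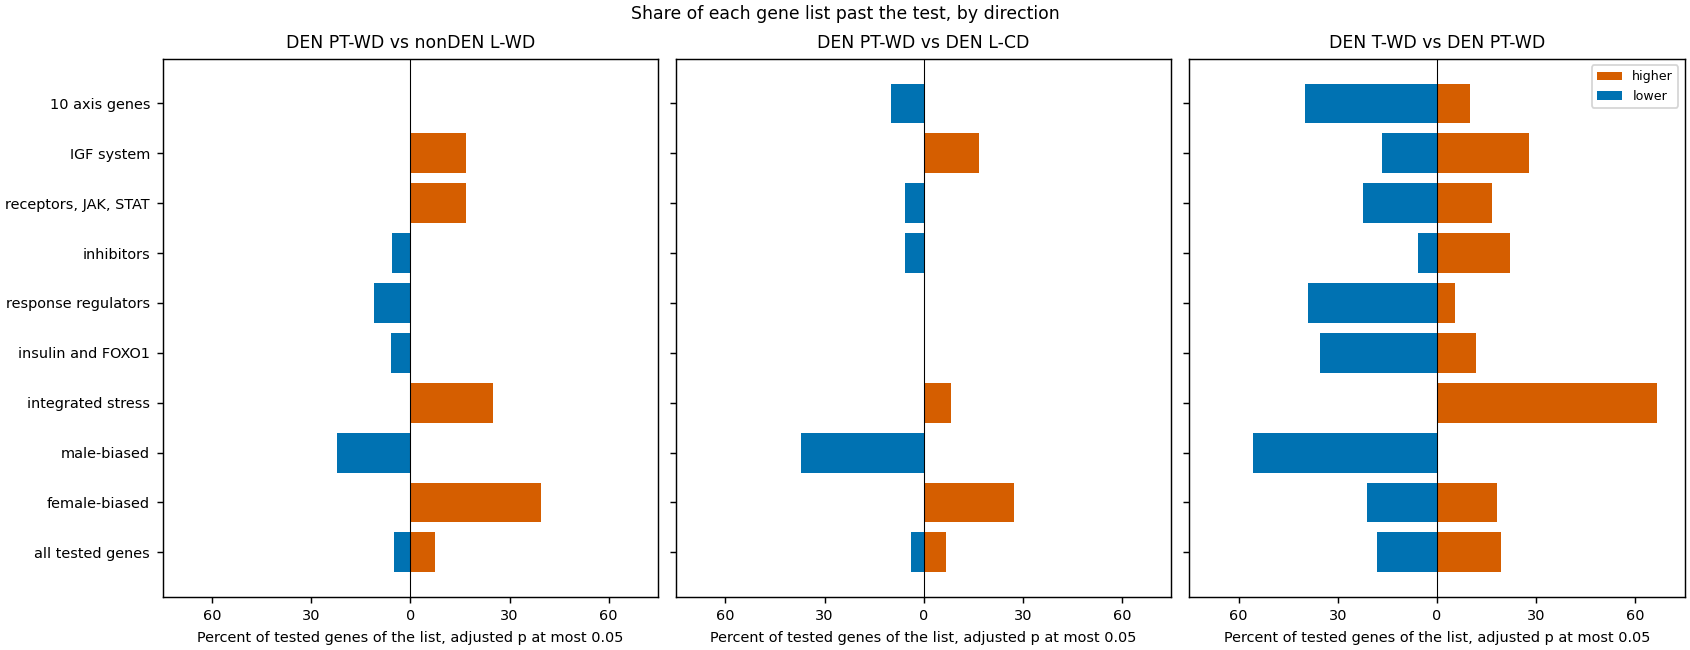
Share of the tested genes of each list (horizontal, percent) with an adjusted p of at most 0.05, lower to the left and higher to the right, in 3 comparisons; the last row gives all tested genes. Male-biased genes lie to the left in all 3 panels, female-biased genes to the right in both peritumoural panels, and integrated stress genes reach 8 of 12 to the right in tumours.

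The estimated transcript length of Ghr and Igf1 set nonDEN L-CD liver apart. RSEM's length for Ghr, the mean over its transcripts weighted by their estimated share, was 2301 to 2410 bases in the 3 nonDEN L-CD samples and at least 2501 in every other sample, and for Igf1 it was 1925 to 2387 against at least 2483. Of 8144 genes with several transcript lengths and enough counts, 59 (0.724%) were shorter in these 3 samples than in all others, and 48 (0.589%) were longer. The pattern was noticed after the values were seen and has no test, and which transcripts gave it was not tested.

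The genes most like 4 of the members over the 25 samples were sought among 10341 genes, by Pearson's r of log2 CPM, as a description. The points share their groups and library depth, so that the r of deviations from the group means is given after each r. For Igf1 these were Wfdc21 (0.95, 0.71), Cyp2c23 (0.95, 0.81) and C730036E19Rik (0.95, 0.63). For Socs2 they were E2f8 (0.82, 0.91), Onecut1 (0.75, 0.81) and Zfp292 (0.75, 0.76), and for Cish they were Rgs3 (0.89, 0.87), Foxa2 (0.88, 0.89) and Onecut1 (0.87, 0.89). For Igfbp1 they were Rbfox2 (0.94, 0.87), Kng2 (0.94, 0.88) and Btg2 (0.93, 0.89).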

How the data were processed

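Total RNA of 25 frozen liver and tumour samples was made into KAPA mRNA HyperPrep libraries. Per the submitters' processing notes, the authors used FastQC, STAR and RSEM on GRCm38; which releases of both RSEM and STAR were run, the gene annotation and the strand setting are not given in the sources used here. The deposited file of each sample lists, per gene, an expected count (RSEM's estimate of reads, not normalized), a TPM value computed by the authors' RSEM run, and transcript lengths. Expected counts were rounded to whole numbers. Because RSEM splits shared reads by estimation, counts of near-identical genes are uncertain.

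Groups came from the sample labels. Genes were filtered with filterByExpr (minimum count 10), scaled by TMM and fitted with edgeR 4.0.16 (quasi-likelihood test, all 5 groups in 1 fit, R 4.3.3), with Benjamini-Hochberg adjustment over 15625 genes; the self-test ran on simulated data. Calls used an adjusted p of at most 0.05 and, where stated, a change of at least 1 in size on the log2 scale, as in the study. Intervals use the t distribution of that test. DESeq2 1.42.0, limma 3.58.1 on log2(TPM + 1), no filter, a replicate block, fits of only the compared groups and leaving out each sample were alternatives. Log2 CPM used a prior count of 2. Python 3.11.15, NumPy 2.4.6, SciPy 1.17.1, pandas 2.3.3 and Matplotlib 3.10.9 were used for the rest. No 2 libraries of a group were the same: over 58 pairs the smallest chi-square per gene was 29.1. Precision is limited by 3 to 8 samples a group.

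The members and gene lists were chosen with earlier results of these data known. All 10 members are named; from other lists, at most 3 genes higher and 3 lower with the largest change, an adjusted p of at most 0.05 and a mean of at least 50 normalized counts where higher, while any gene of the receptor, inhibitor and IGF lists could be named. Dbp and the peritumoural values of Elovl3 were chosen after they were seen.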

Additional observations from a re-analysis of the deposited data

Results flagged for a closer look

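Of 40 groups of values tested for a sample far from the rest, 3 had one, and chance gives about 1 in 20. Ghr in DEN L-CD replicate 2 had 18538 normalized counts, with a gap to the next sample of 0.862 of the group's range. Socs2 in DEN PT-WD replicate 2 had 2016, with a gap of 0.574 of the range. Bcl6 in DEN PT-WD replicate 3 had 1304, with a gap of 0.587 of the range. The diet difference of Ghr differed between DEN-treated and untreated mice by -0.80 on the log2 scale (edgeR quasi-likelihood test of the interaction, adjusted p = 0.000683): Ghr was higher on the Western diet in 4 of 4 untreated samples than in all 3 controls, whereas the peritumoural samples of DEN-treated mice overlapped DEN L-CD liver.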

How the results depend on the processing

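Of 1248 values of single members under the alternatives, 1208 kept their side of the threshold, though 64 of these, past it in neither fit, changed sign; 31 no longer passed, 6 passed anew and 3 that had passed changed sign. In tumours against DEN PT-WD, 5 members passed and 4 were called under every omission of 1 sample. Under limma on log2(TPM + 1), 4 members in place of 5 passed for tumours against DEN PT-WD (without Stat5b), 1 in place of 2 for DEN L-CD against nonDEN L-CD, 2 in place of 1 for peritumoural against DEN L-CD liver, and 4 in place of 7 for tumours against nonDEN L-WD, with 3 in place of 5 called. The same scale turned Ghr, peritumoural against DEN L-CD liver, to 0.025, and Stat5a and Stat5b in tumours against nonDEN L-WD to 0.074 and 0.161; on it the median of all genes moved by 0.23 in the first contrast, 0.26 in the second and 0.16 in DEN PT-WD against nonDEN L-WD. DESeq2 passed 1 in place of 0 for DEN PT-WD against nonDEN L-WD. In peritumoural against DEN L-CD liver, 0 in place of 1 passed with no filter, with the replicate block, and without the 2 DEN PT-WD libraries with most pancreas markers, an alternative chosen after seeing the data. Leaving out 1 sample gave 1 to 2 members past the test for either comparison with nonDEN L-CD, 0 to 1 past and 0 to 1 called for DEN PT-WD against nonDEN L-WD, 0 to 1 past for peritumoural against DEN L-CD liver, and 5 to 7 past and 4 to 5 called for tumours against nonDEN L-WD. Of 14 relations, 3 passed on log2 CPM and 0 on log2(TPM + 1) or by ranks. Same-numbered samples were not treated as pairs in the main fit. Their deviations from the group means correlated at -0.23 to 0.39 over the 6 comparisons, and at -0.23 to 0.34 for tumours against DEN PT-WD. Such correlations cannot show whether 2 samples came from 1 animal. With the replicate block, 6 members passed and 4 were called for tumours against nonDEN L-WD, without Bcl6 (adjusted p = 0.279), and the tumour counts against DEN PT-WD stayed at 5 and 4. The cause of these shifts was not tested.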
